A study of Mus musculus with 11 samples.

Results

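Cells reprogrammed to pluripotency from ventricular myocytes (ViPSC) were set against ventricular myocytes (VM), the cell type of their origin. The comparison used 4 of the 11 arrays in the series, all 3 ViPSC arrays and the single VM array. It covered 18193 genes, each read from the probe set that was brightest on average across all arrays. The ViPSC were undifferentiated cells kept on irradiated feeder fibroblasts in serum with LIF, and feeders were depleted by letting them attach to uncoated dishes before RNA was taken. VM came from pups on postnatal day 1. The ViPSC and VM, like all other samples, had a background of mixed C57/Bl and BlackSwiss. The other 7 arrays held induced cells from tail tip fibroblasts (TiPSC, 3 arrays), embryonic stem cells (ESC, 3 arrays) and the tail tip fibroblasts themselves (TTF, 1 array, postnatal day 1), and appear below only beside a ViPSC or VM value. The labels used here do not say how many pups or clones were used, which reprogramming factors were given, or that the ViPSC replicates were separate cultures.

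VM had no replicate, so no test was made and every result is a size. Values are log2 expression levels from RMA, the robust multi-array average, on which 1 unit is a doubling. A difference is ViPSC minus VM, and its error is the SD of the 3 ViPSC arrays, which leaves out the unknown spread of VM. A gene was called lower or higher where every ViPSC array differed from VM by at least 2 units, which is 4-fold. A gene was called held where VM was at 7 or more and every ViPSC array lay within 0.5 units of it. The files give no detection calls, so a level near 3 or 4 cannot be told from absence, and RMA compresses differences at that end. Levels of different probe sets are not on a common scale, so genes are compared here mainly by their differences. Medians of levels over several genes, the limit of 7 and words such as high are rough guides only. Where averaging all probe sets of a gene, in place of taking the brightest, ended the call of a gene named below, this is said beside it.

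A ventricular myocyte fills most of its volume with sarcomeres, in which thick myosin filaments pull on thin actin filaments when calcium is released from the sarcoplasmic reticulum. It is fuelled mainly by mitochondria, which after birth turn from glucose and lactate towards fatty acids. Many of its proteins have a muscle form and a second form, from another gene, that other cells use. A pluripotent stem cell instead divides fast, has epithelial contacts, depends largely on glycolysis and is held by a transcription factor network around Pou5f1, Sox2 and Nanog.

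Promoters of 4 genes from among those that moved furthest, 2 in each direction, are shown first. Each of the 4 windows holds a motif marked below, so they do not stand for the other genes that moved furthest. They are RefSeq windows of the build GRCm38.p6, from 250 bases before to 50 bases after the annotated start, written 5′ to 3′ on the gene's strand. Capitals mark a CArG box (the serum response factor motif) or TATAAA in the muscle genes, and ATGCAAA (an octamer-like motif) in the stem cell genes, found on either strand.
Actc1, cardiac actin, chr2:114052826-114053125, minus strand: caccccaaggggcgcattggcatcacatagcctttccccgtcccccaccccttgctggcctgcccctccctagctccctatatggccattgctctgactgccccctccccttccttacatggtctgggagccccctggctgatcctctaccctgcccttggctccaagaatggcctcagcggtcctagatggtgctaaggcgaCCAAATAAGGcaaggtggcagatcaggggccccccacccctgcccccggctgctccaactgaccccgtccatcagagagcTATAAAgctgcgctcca
Myh6, alpha cardiac myosin heavy chain, chr14:54966558-54966857, minus strand: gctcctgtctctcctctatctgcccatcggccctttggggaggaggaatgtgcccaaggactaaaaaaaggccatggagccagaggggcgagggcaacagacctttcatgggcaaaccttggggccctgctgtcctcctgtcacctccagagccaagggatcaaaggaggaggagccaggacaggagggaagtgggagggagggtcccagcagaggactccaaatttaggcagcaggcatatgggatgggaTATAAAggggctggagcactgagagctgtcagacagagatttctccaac
Sox2, chr3:34649745-34650044, plus strand: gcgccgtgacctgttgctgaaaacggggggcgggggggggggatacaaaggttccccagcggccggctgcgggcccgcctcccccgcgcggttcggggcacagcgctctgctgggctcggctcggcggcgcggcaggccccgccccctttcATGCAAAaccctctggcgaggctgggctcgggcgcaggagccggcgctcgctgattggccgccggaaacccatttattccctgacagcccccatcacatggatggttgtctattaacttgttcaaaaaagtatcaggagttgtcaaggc
Nanog, 1 of its 2 windows, chr6:122707315-122707614, plus strand: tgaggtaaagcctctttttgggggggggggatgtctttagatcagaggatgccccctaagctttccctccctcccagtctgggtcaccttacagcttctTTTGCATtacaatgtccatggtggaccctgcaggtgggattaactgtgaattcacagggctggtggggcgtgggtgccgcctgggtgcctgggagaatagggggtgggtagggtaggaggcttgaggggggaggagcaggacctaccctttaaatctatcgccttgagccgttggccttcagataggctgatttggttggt
The Actc1 window held both a CArG box and TATAAA and had 7 CG dinucleotides, and the Myh6 window held TATAAA with 2 CG. In the Sox2 window 27 CG were counted and in the Nanog window 4. Most genes that moved furthest lacked the marked motifs. Among the windows found for the 15 largest falls, only that of Actc1 held a CArG box. TATAAA lay only in windows of Myl2, Myh6, Pln and Actc1. Among the windows found for the 15 largest rises, ATGCAAA lay only in those of Sox2, Nanog and Mageb16. Neither window of Tnnt2 held a CArG box or TATAAA, and neither window of Pou5f1 held ATGCAAA.

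Windows were found for 43 of the 51 measured contractile genes (61 windows) and for 1503 of the 1812 held genes (1940 windows). The contractile windows had a median of 6 CG dinucleotides, the held genes' windows 22, against 7 in all 32851 RefSeq windows. The RefSeq table includes many genes that these arrays did not measure. Windows were found for 14452 of the 18193 measured genes, too few for a check over measured genes, and those had a median of 16 CG. A CArG box lay in 16.4% of the contractile windows, in 1.65% of the held genes' windows and in 1.63% of all windows. TATAAA was found in 19.7%, 6.39% and 13.6%, and a MEF2 site in 13.1%, 1.08% and 3.19%, in the same order. In the windows found for measured genes the shares were 1.35% for a CArG box, 9.77% for TATAAA and 2.10% for a MEF2 site. A CArG box and a MEF2 site can each contain TATAAA, so these shares overlap. ATGCAAA lay in 4.63% of all windows. These are counts of letters in short windows and do not show binding.

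Between ViPSC and VM, 1230 of 18193 genes (6.76%) were called lower and 1172 (6.44%) higher. A further 1812 genes, 9.96% of all and 24.5% of the 7406 genes at 7 or more in VM, were called held. The median difference over all genes was 0.04 units. Among the genes at 7 or more in VM, 1092 (14.7%) were lower and 326 (4.4%) higher. The share called lower was larger at higher VM levels. It was 10.97% of genes with VM from 7 to 9, 17.2% from 9 to 11, 23.1% from 11 to 13 and 27.3% of the 165 genes at 13 or more. The held share was nearly flat over the same ranges, at 24.0%, 25%, 24.6% and 26.1%. At the far ends, 89 genes were at least 6 units lower and 50 at least 6 units higher in every ViPSC array.

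**Figure D1:**
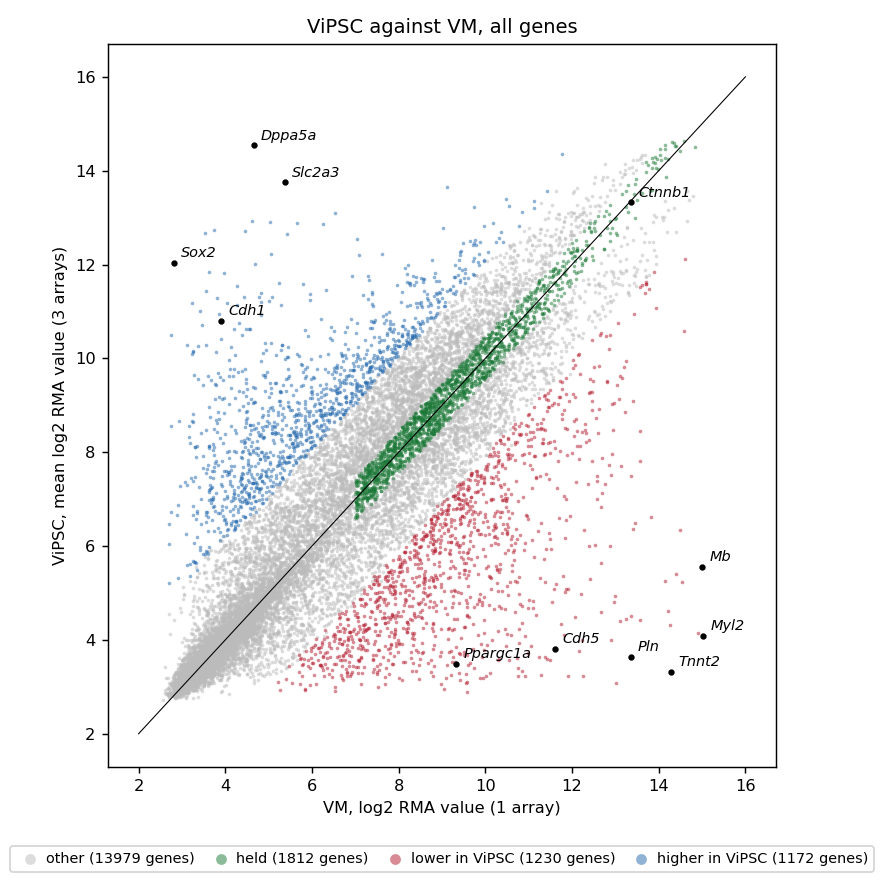
Each point is 1 of 18193 genes, with its mean level in the 3 ViPSC arrays up and its level in the single VM array across, both as log2 RMA values. Red points are the 1230 genes called lower, blue points the 1172 called higher and green points the 1812 held, and Myl2, Tnnt2 and Mb sit at the lower right while Sox2, Slc2a3 and Dppa5a sit at the upper left.

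The labels were first set against defining markers. All 10 cardiomyocyte markers were lower, with medians of 4.28, 4.26 and 4.50 in the ViPSC arrays, against 14.25 in VM. All 7 pluripotency markers were higher, with medians of 12.62, 12.68 and 12.65 in the ViPSC arrays, against 3.73 in VM. Markers of other heart cells were then counted. The 6 endothelial markers had a median of 4.81, 4.87 and 4.67 in the ViPSC arrays and 10.63 in VM, and all 6 were lower. The 8 fibroblast markers had a median of 6.10, 5.90 and 6.16 in the ViPSC arrays and 11.06 in VM, with 6 lower, and on the TTF array it was 13.29. The 6 smooth muscle markers had a median of 6.37, 6.39 and 6.43 in the ViPSC arrays and 7.44 in VM, with 2 lower. The 6 macrophage markers had a median of 5.31, 5.50 and 5.75 in the ViPSC arrays and 5.72 in VM, with none lower and 1 higher. In such bulk RNA, fewer cells of a type and less RNA per cell cannot be told apart, and the part that non-myocytes had in any difference below was not tested.

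The 15 genes that fell furthest lay between 12.24 and 15.02 in VM and between 2.81 and 5.75 in the ViPSC arrays. Of these, 8 belong to the contractile lists. Tnnt2, cardiac troponin T, read 3.29, 3.37 and 3.31 in the ViPSC arrays, against 14.28 in VM, a difference of -10.96 ± 0.04 (SD, n = 3). Myl2, the ventricular myosin regulatory light chain, read 4.06, 4.03 and 4.17 in the ViPSC arrays, against 15.02 in VM (-10.93 ± 0.07). For Myh6 the ViPSC arrays gave 4.15, 4.13 and 4.15, against 14.90 in VM (-10.75 ± 0.01). No ViPSC array came within 10 units of VM for any of these 3 genes. The others of the 15 were the slow and cardiac troponins Tnni1, Tnni3 and Tnnc1, Actc1, the small heat shock protein gene Hspb7, Csrp3, Smpx, the calcium pump inhibitor Pln, myoglobin (Mb), the muscle creatine kinase Ckm, the fatty acid binding protein gene Fabp4 and Cd93. Fabp4 and Cd93 are best known from endothelial cells, fat cells or blood cells rather than from myocytes.

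The thin filament, thick filament and titin lists had the lowest medians of the 38 gene lists. Of their 51 measured genes together 43 were lower, none was higher and 1 was held, at a median difference of -6.11. In 37 of the 43 every ViPSC array was below 7, and all 43 lay within 1 unit of the ESC mean. The share of all genes within 1 unit of that mean was not counted. In the thick filament 9 of 11 genes were lower (median -6.10). Myh7, the beta myosin heavy chain, read 3.73, 3.83 and 3.60 in the ViPSC arrays, against 10.99 in VM. Mylk3, the cardiac kinase of the regulatory light chain, read 3.36, 3.30 and 3.25, against 9.40 in VM. The atrial light chains differed less. Myl7 read 6.86, 6.77 and 6.86 in the ViPSC arrays, against 10.47 in VM, and Myl4 7.82, 7.48 and 7.65, against 9.999 in VM. The call of Myl4 was lost with averaged probe sets.

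Of the 14 thin filament genes 13 were lower (median -7.24). Actc1 read 5.27, 5.46 and 5.47 in the ViPSC arrays, against 14.40 in VM (-9.00 ± 0.12). The thin filament also includes Lmod2, which lengthens actin filaments, at 3.27, 3.52 and 3.38 in the ViPSC arrays and 10.76 in VM. Acta1, skeletal actin, which the newborn heart also makes, read 6.60, 6.88 and 6.77 in the ViPSC arrays, against 10.51 in VM. The one member that stayed was Tpm2, beta tropomyosin, which also occurs in many other cells. It read 9.72, 9.76 and 9.70 in the ViPSC arrays and 9.43 in VM (0.29 ± 0.03) and was held, a call lost with averaged probe sets.

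In titin and the Z-disc and M-band, 21 of 26 genes were lower (median -5.61). Ttn, the elastic spring of the sarcomere, read 5.07, 4.38 and 4.99 in the ViPSC arrays, against 12.96 in VM (-8.14 ± 0.38). Myom2, which crosslinks myosin at the M-band, read 4.87, 4.97 and 4.94, against 13.001 in VM. Among Z-disc genes Ldb3 had a difference of -7.71, Tcap -7.23 and Actn2 -7.05. The chaperone genes Cryab and Bag3, which also serve other cells, stayed above the low end. Cryab read 7.65, 7.96 and 7.79 in the ViPSC arrays, against 13.58 in VM, and Bag3 read 7.95, 7.95 and 8.0, against 11.37 in VM. Pdlim5 (-1.95) and Obsl1 (-1.16) were the members at 7 or more in VM that missed the call.

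**Figure D2:**
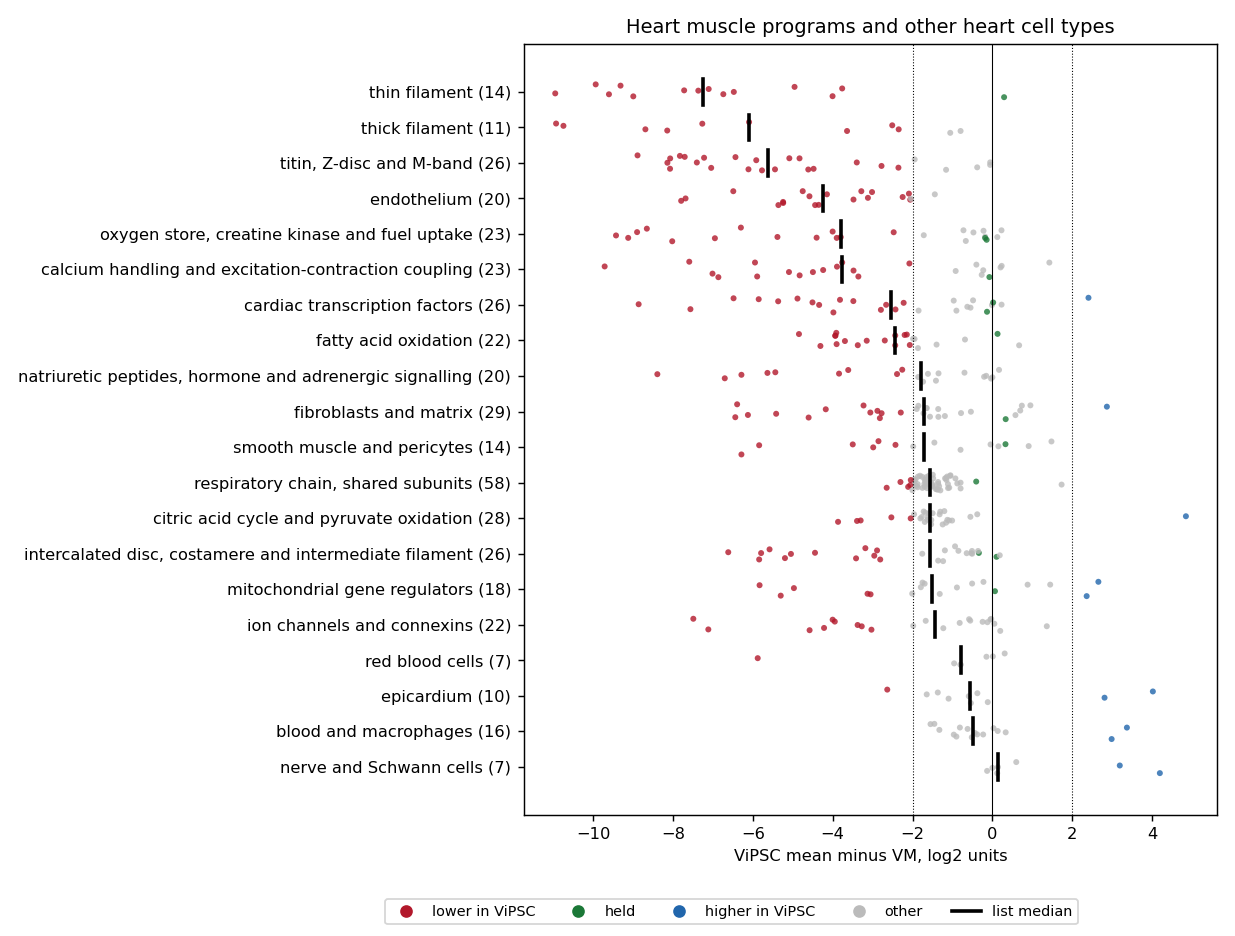
Each point is the difference of 1 gene, the mean of the 3 ViPSC arrays minus VM in log2 units, for 13 heart muscle lists and 7 lists of other heart cell types, with the number of measured genes in brackets. Red points were called lower, green points held and blue points higher, the black bar is the list median and the dotted lines stand at 2 units, so that the contractile lists lie at the top and most genes of the respiratory chain lie near its median of -1.57.

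Of 26 transcription factors and cofactors of the heart, 15 were lower and 1 higher (median -2.55). Over the 16 members at 7 or more in VM or ViPSC the median was -4.16. Nkx2-5, a core factor of the cardiac lineage, read 4.93, 5.02 and 5.02 in the ViPSC arrays, against 9.87 in VM (-4.88 ± 0.05). Gata4 read 3.89, 4.11 and 4.06, against 8.36 in VM, and Gata6 4.17, 4.40 and 4.50, against 10.84 in VM. Both are zinc finger factors that bind cardiac promoters, and for both every ViPSC array was at the low end. Mef2c (-4.51) and Mef2a (-3.98) were lower, and Mef2a still read 8.14, 8.20 and 8.07 in the ViPSC arrays, against 12.12 in VM. The list's largest differences belonged to the stress-responsive cofactors Csrp3 (-8.87) and Ankrd1 (-7.57). Srf and Tead1 were held. Srf, the factor that binds CArG boxes, read 8.23, 8.25 and 8.28 in the ViPSC arrays and 8.39 in VM. Tead1 read 10.97, 10.99 and 11.003 in the ViPSC arrays and 10.97 in VM, while Mef2d missed the limits at -0.55. Tbx3, which acts in the conduction system and also in naive pluripotency, was higher, at 9.17, 9.32 and 9.10 in the ViPSC arrays and 6.79 in VM, a call lost with averaged probe sets. Tbx5, Hand2 and Isl1 lay below 6 in both kinds of cell and give no information on loss.

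Genes of the intercalated disc, costamere and intermediate filaments were mixed. Of 26 measured, 12 were lower and 2 held (median -1.56, and -2.85 over the 22 members at 7 or more in VM or ViPSC). Des, the muscle intermediate filament protein desmin, read 6.76, 6.95 and 6.77 in the ViPSC arrays, against 12.67 in VM (-5.84 ± 0.11). Itgb1bp2, the muscle integrin partner melusin, had a difference of -6.62, and Popdc2 and Bves, membrane proteins of muscle, -5.80 and -5.58. Cdh2, N-cadherin, read 6.45, 6.43 and 5.94 in the ViPSC arrays, against 11.47 in VM. The 2 held members also serve cell contacts in epithelia. Jup, plakoglobin, read 7.81, 7.84 and 7.84 in the ViPSC arrays and 7.73 in VM, and Ctnna1, alpha-catenin, 12.66, 12.77 and 12.62 in the ViPSC arrays and 13.02 in VM. The held call of Ctnna1 was lost with averaged probe sets. Pkp2 (-1.76), Vcl (-1.36), Dsg2 (-1.19), Tjp1 (-0.64), Dag1 (-0.52) and Dmd (-0.51) were not called, and Dsp, desmoplakin, was lower but still at 9.20, 9.38 and 9.25 in the ViPSC arrays, against 12.46 in VM.

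Most steps of calcium handling were lower. Of 23 measured genes 15 were lower, 1 was held and none was higher (median -3.76, and -2.38 with averaged probe sets). Pln, which restrains the sarcoplasmic calcium pump, read 3.56, 3.71 and 3.65 in the ViPSC arrays, against 13.36 in VM (-9.72 ± 0.07). Ryr2, the calcium release channel, read 3.73, 3.53 and 3.67, against 11.24 in VM (-7.60 ± 0.10). The calcium store protein Casq2 had a difference of -7.01, the L-type channel subunits Cacna1c and Cacnb2 -5.95 and -4.83, and the sodium-calcium exchanger Slc8a1 -3.48, whose call was lost with averaged probe sets. Fkbp1b, which binds the release channel, was the only member at least 1 unit higher, at 7.22, 7.38 and 7.51 in the ViPSC arrays and 5.94 in VM. The calcium pump gene Atp2a2 was held on the probe set used, and its other probe sets are given below.

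Among 22 ion channel and connexin genes 9 were lower (median -1.45) and none was held or higher. Over the 13 members at 7 or more in VM or ViPSC the median was -3.38. Abcc9, the sulfonylurea receptor of the cardiac potassium channel, read 3.14, 3.34 and 3.56 in the ViPSC arrays, against 10.84 in VM. Fxyd1, the sodium pump regulator phospholemman, read 5.37, 5.20 and 5.30, against 12.41 in VM. The potassium channel genes Kcne1, Kcnk3, Kcnj5, Kcnh2 and Kcnq1 and the channel partner Kcnip2 were lower, with differences of -4.58 to -3.27. Averaged probe sets ended the calls of Kcnk3, Kcnj5 and Kcnip2, 3 of these 6. Gja1, the connexin that couples ventricular myocytes, stayed high in both, at 11.70, 11.66 and 11.84 in the ViPSC arrays and 12.96 in VM (-1.23 ± 0.10), and Gjc1, connexin 45, had a difference of 1.36. Their sarcolemmal neighbour Atp1b1, a sodium pump subunit, had one of -0.82.

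In the list of natriuretic peptides, hormone and adrenergic signalling 9 of 20 genes were lower (median -1.80, and -4.64 over the 10 members at 7 or more in VM or ViPSC). Nppa, atrial natriuretic peptide, read 3.86, 3.85 and 3.57 in the ViPSC arrays, against 12.15 in VM (-8.40 ± 0.17). Nppb, the B-type peptide, kept a high level, at 9.49, 9.54 and 9.49 in the ViPSC arrays, against 11.77 in VM (-2.26 ± 0.03). The ESC mean for Nppb was 8.73 and the TTF array read 4.57. Akap6, an anchor of protein kinase A, had a difference of -6.71, and Adcy6, an adenylyl cyclase of the adrenergic pathway, -5.44. Rgs5 (-6.29) was also on the list of pericyte markers.

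Genes of fuel supply included differences near those of the sarcomere. Of 23 genes of oxygen storage, creatine kinase and fuel uptake 13 were lower and 2 held (median -3.80). Mb, which stores oxygen, read 5.44, 5.75 and 5.50 in the ViPSC arrays, against 15.00 in VM (-9.43 ± 0.16). Cd36, the fatty acid transporter, read 3.18, 3.26 and 3.27, against 11.90 in VM, and Lpl, which frees fatty acids from lipoproteins, 6.63, 6.37 and 6.49, against 13.45 in VM. Cd36 and Fabp4 are also made by capillary endothelium. Fabp3, the heart fatty acid binding protein, stayed high, at 12.93, 13.01 and 12.87 in the ViPSC arrays and 14.66 in VM (-1.72 ± 0.07). The ESC mean for Fabp3 was also high, at 12.72, and the TTF array read 8.12. The lactate carrier Slc16a1 and the carnitine carrier Slc25a20 were held, at differences of -0.14 and -0.18, and the call of Slc25a20 was lost with averaged probe sets.

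Most genes of fatty acid oxidation fell. Of 22 measured genes 15 were lower by at least 2 units and 19 by at least 1 (median -2.43), against 13.8% of all genes at 1 unit. Acadl, the long-chain acyl-CoA dehydrogenase, read 9.13, 9.07 and 9.09 in the ViPSC arrays, against 13.40 in VM (-4.31 ± 0.03). Acot2, a mitochondrial thioesterase, read 6.95, 7.08 and 7.0, against 11.86 in VM. Hadha and Hadhb, the subunits of the trifunctional protein, had differences of -3.90 and -3.37. The list medians were 8.83, 8.82 and 8.79 in the ViPSC arrays, against 12.10 in VM and 9.52 in TTF. Over all genes with VM from 11 to 13 the median difference was -0.64. The share of those genes lower by at least 1 unit was not counted. Cpt1a, the liver-type carnitine palmitoyltransferase, was held at 8.48, 8.28 and 8.36 in the ViPSC arrays and 8.24 in VM, a call lost with averaged probe sets.

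The citric acid cycle and the respiratory chain had smaller median differences than fatty acid oxidation. Of 28 genes of the cycle and of pyruvate oxidation 5 were lower by 2 units, but 24 by at least 1 (median -1.56). Mpc1, a pyruvate carrier, read 7.79, 7.74 and 7.92 in the ViPSC arrays, against 11.68 in VM, and Idh2 9.996, 10.01 and 9.86, against 13.25 in VM, a call lost with averaged probe sets. Citrate synthase (Cs), which did not reach the call, read 11.85, 11.80 and 11.89 in the ViPSC arrays and 13.47 in VM. Bdh1, a ketone body enzyme, went the other way, at 8.76, 8.68 and 8.65 in the ViPSC arrays and 3.85 in VM.

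Of 58 shared subunits of the respiratory chain and ATP synthase only 5 were lower by 2 units (8.62%), close to the 6.76% of all genes, yet 52 were lower by at least 1 unit (89.7%), against 13.8% of all genes. The list median was -1.57 and, taken array by array, -1.58 to -1.56. All genes include 9380 that lay below 7 in both VM and the ViPSC mean. Bright genes fell more in general. The median difference was -1.25 over all genes with VM at 13 or more and -0.64 over those from 11 to 13. The share of such bright genes lower by at least 1 unit was not counted. Complex I had 27 of 28 genes at least 1 unit lower (median -1.65), complex III 8 of 8 (-1.57), complex IV 5 of 6 (-1.24) and ATP synthase 11 of 15 (-1.30). The list leaves out Cox6a1 (-0.31, held) and Cox8a (-0.77), complex IV subunits that appear among the pairs below. The complex IV count therefore depends on which subunits were listed. Ndufa5 of complex I had the largest difference, at 10.15, 10.22 and 10.23 in the ViPSC arrays and 12.85 in VM. Cox7c of complex IV was the only member at least 1 unit higher, with a difference of 1.74 and a VM level of 6.37. Atp5b, the catalytic beta subunit, read 13.37, 13.35 and 13.35 in the ViPSC arrays and 14.15 in VM. The list medians were 11.75, 11.78 and 11.76 in the ViPSC arrays, against 13.43 in VM, 11.69 in the ESC mean and 11.58 in TTF.

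The regulators of mitochondrial genes divided. Ppargc1a, the coactivator that drives mitochondrial biogenesis in muscle, read 3.46, 3.56 and 3.48 in the ViPSC arrays, against 9.33 in VM (-5.83 ± 0.05). Perm1 (-5.30), Ppargc1b (-4.97), Esrrg (-3.13) and Pparg (-3.05) were lower too, and Esrra had a difference of -1.75. Of the general factors of mitochondrial transcription 2 were higher. Nrf1 read 9.28, 9.21 and 9.34 in the ViPSC arrays, against 6.62 in VM, Tfb1m was higher by 2.36, Tfam had a difference of 1.45 and Tfb2m was held. The calls of Nrf1 and Esrrg were lost with averaged probe sets, and that of Tfb1m without probe sets marked in their names as less specific. In all, 5 of the 18 regulators were lower and 2 higher.

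Pairs of related genes set a form of a protein that heart or skeletal muscle uses (here called the muscle form) beside a relative. Not every gene listed as a muscle form is restricted to muscle. Smarca2 read 7.95 in TTF and 7.80 in VM, Lmna 11.75 in TTF and 11.08 in VM, and Cdh2 10.67 in TTF and 11.47 in VM. Of 34 listed pairs 29 were measured, and the muscle form was lower in 24. In 23 of these 24 the relative was not lower, and in 10 its mean difference stayed within 1 unit. Of all genes 6.76% were lower. Of genes at 7 or more in VM, 49.2% had every ViPSC array within 1 unit of it. These counts therefore do not set the relatives apart from other genes. The median difference was -5.20 for the muscle forms and 0.53 for the relatives, and the relative had the higher difference in 29 of 29 pairs. Cox6a2, a muscle subunit of cytochrome c oxidase, read 6.58, 6.68 and 6.59 in the ViPSC arrays, against 13.81 in VM, while Cox6a1 read 13.85, 13.87 and 13.85, against 14.17 in VM. Cox8b had a difference of -8.81 and Cox8a one of -0.77. For the creatine kinases the difference was -8.90 for Ckm and 1.25 for the brain form Ckb.

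In 4 pairs the muscle form was lower and the relative higher. Slc2a4, the insulin-dependent glucose transporter, read 5.13, 5.04 and 4.94 in the ViPSC arrays, against 9.04 in VM, and Slc2a1 read 13.24, 13.26 and 13.21, against 9.74 in VM. Pgam2 had a difference of -5.56 and Pgam1 one of 2.60, and Ryr2 one of -7.60 beside 2.56 for Itpr3. Cdh1, E-cadherin, read 10.80, 10.91 and 10.70 in the ViPSC arrays, against 3.90 in VM, opposite to Cdh2. In both pairs of SWI/SNF remodelling subunits the gene listed as the muscle form was lower and the relative was not called. Smarcd3, a subunit that the developing heart uses, read 6.02, 6.13 and 5.98 in the ViPSC arrays, against 10.30 in VM, and Smarcd1 had a difference of 1.47. Smarca2 had one of -3.97 beside 0.53 for Smarca4. The exception was glycogen phosphorylase, for which Pygm (-6.30) and Pygb (-2.41) were both lower. The pairs were listed with earlier results of these arrays known, so their direction is a description.

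**Figure D3:**
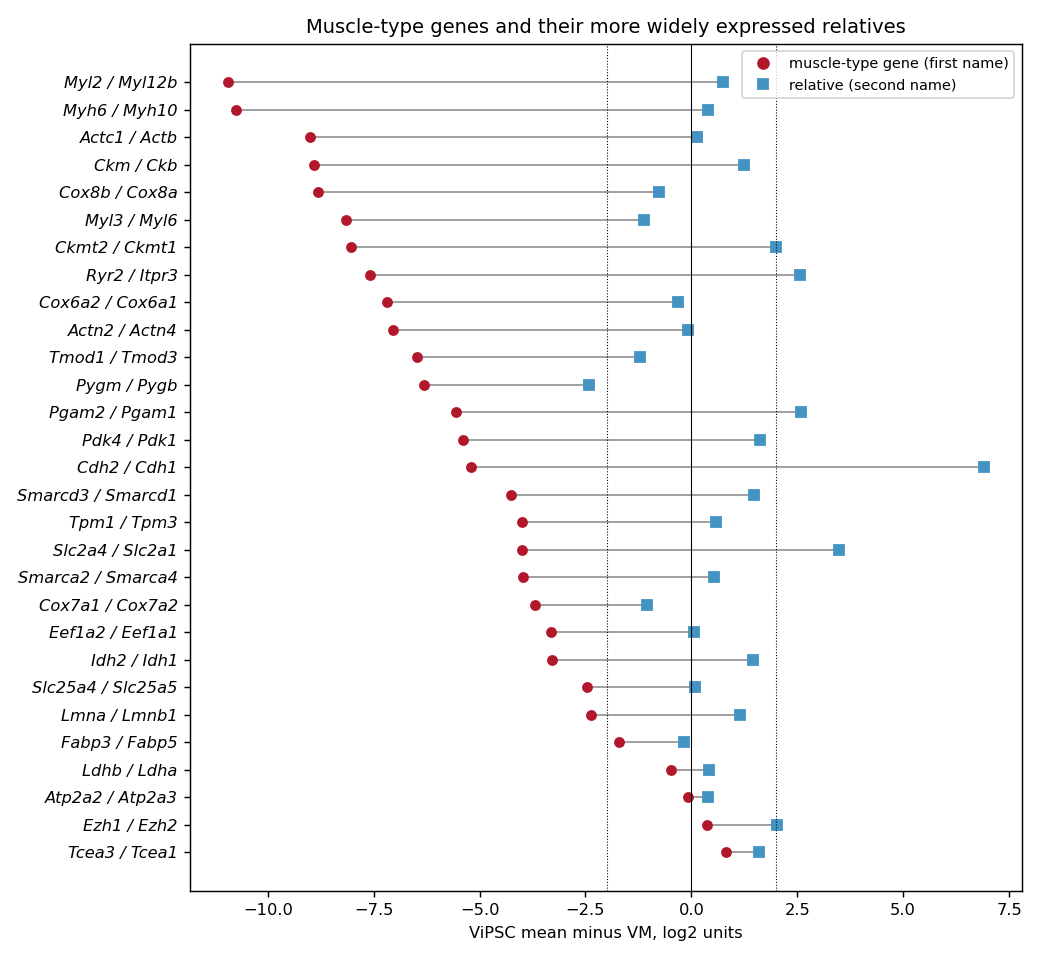
Each row is a pair of related genes, placed by the mean of the 3 ViPSC arrays minus VM in log2 units. The gene listed as the muscle form (muscle-type gene) is a red circle and its relative a blue square. In all 29 measured pairs the square lies to the right of the circle, and the dotted lines stand at 2 units.

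Programs of other heart cells differed beside those of the myocyte. Of 20 endothelial genes 18 were lower (median -4.25), with VM levels of 6.82 to 11.61. Cdh5, the endothelial cadherin, read 3.78, 3.86 and 3.80 in the ViPSC arrays, against 11.61 in VM (-7.80 ± 0.04), and Emcn 3.27, 3.44 and 2.96, against 10.91 in VM. Pecam1, which pluripotent cells also make, stayed at 8.28, 8.17 and 8.30 in the ViPSC arrays, against 10.34 in VM. Of 29 fibroblast and matrix genes 12 were lower, 1 was higher and 1 held (median -1.73). Dcn, decorin, read 5.13, 4.99 and 5.43 in the ViPSC arrays, against 11.62 in VM, and Postn 6.19, 5.72 and 6.08, against 12.39 in VM. Fn1, fibronectin, read 12.10, 12.24 and 12.24 in the ViPSC arrays and 11.46 in VM. Of 14 smooth muscle and pericyte genes 6 were lower, and of these Des, Rgs5 and Myocd also stood on a myocyte list. Myh11, a defining smooth muscle gene, was near 4 in both, at 4.22, 4.07 and 4.03 in the ViPSC arrays and 3.96 in VM.

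The lists of blood, red cells, epicardium and nerve had few calls, to be read against the 6.76% of all genes called lower and the 6.44% called higher. None of 16 blood and macrophage genes was lower, and Cd68 (3.37) and Laptm5 (2.99) were higher in ViPSC, with the call of Laptm5 lost with averaged probe sets. Alas2, the haem synthesis enzyme of red cells, read 3.56, 3.62 and 3.88 in the ViPSC arrays, against 9.57 in VM, and was the only one of 7 red cell genes called. Of 10 epicardial genes Tbx18 was lower (-2.63), and Krt19 (4.02) and Lrrn4 (2.81) were higher. Of 7 nerve genes Tubb3 (4.20) and Erbb3 (3.19) were higher and none was lower, and the call of Erbb3 was lost with averaged probe sets.

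Pluripotency genes moved the opposite way. Of 35 core and naive genes 33 were higher (median 6.24) and none was lower. Dppa5a read 14.52, 14.56 and 14.55 in the ViPSC arrays, against 4.66 in VM (9.89 ± 0.02). Sox2 read 12.06, 12.12 and 11.94, against 2.81 in VM, Nanog 12.62, 12.76 and 12.65, against 3.53 in VM, and Pou5f1 12.74, 12.73 and 12.76, against 3.73 in VM. The 2 members not called were Klf4 and Myc, both already high in VM. Klf4 read 11.54, 11.56 and 11.48 in the ViPSC arrays and 10.24 in VM, and Myc 8.24, 8.09 and 8.21 in the ViPSC arrays and 10.002 in VM. Klf2 (9.44 in VM) and Klf5 (9.26 in VM) were also at 9 or more in VM and still higher in ViPSC, by 2.85 and 2.29, though averaged probe sets ended the call of Klf5. Of 12 genes of primed epiblast 7 were higher, among them Dnmt3b, Etv5 and Otx2, while Fgf5 had a difference of 1.42.

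Epithelial genes were higher in 16 of 20 cases (median 3.46). Esrp1, an epithelial splicing regulator, read 10.24, 10.35 and 10.28 in the ViPSC arrays, against 3.12 in VM, and Epcam 12.19, 12.25 and 12.23, against 5.07 in VM. Dsp was the one member called lower. Germline genes that promoter methylation silences in body cells were higher in 14 of 18 cases (median 2.97, and 4.50 over the 9 members at 7 or more in VM or ViPSC). Tex19.1 read 11.80, 11.78 and 11.88 in the ViPSC arrays, against 3.97 in VM, and Rhox5 12.90, 12.85 and 12.84, against 6.25 in VM. None of the 18 was at 7 or more in VM.

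Many cell division genes were higher, but VM was not without them. Of 31 genes of DNA replication 21 were higher (median 2.37), and of 29 mitotic genes 15 (median 2.04), with none lower in either list. Cdc6, which loads the replicative helicase, read 10.27, 10.30 and 10.29 in the ViPSC arrays, against 5.31 in VM, and Mybl2, a mitotic transcription factor, 11.12, 11.30 and 11.18, against 4.83 in VM. Mki67 read 11.03, 11.09 and 11.004 in the ViPSC arrays and 10.40 in VM, and Cenpa 11.64, 11.72 and 11.62 in the ViPSC arrays and 11.23 in VM. Cenpa was held, but not with averaged probe sets. At postnatal day 1 the heart still holds dividing myocytes and other dividing cells, which this RNA does not separate. In the list of inhibitors, D cyclins and p53 targets, Cdkn2c (-3.67), Ccnd2 (-2.80) and Cdkn1a (-2.23) were lower. So were Meis1 (-2.99) and Meis2 (-2.92), which are transcription factor genes rather than inhibitors or cyclins. The calls of both Meis genes were lost with averaged probe sets. The inhibitor gene Cdkn2a was higher, at 7.86, 7.74 and 7.80 in the ViPSC arrays and 3.94 in VM.

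Biosynthetic lists lay to the same side with smaller sizes. Of 19 genes of serine, one-carbon and nucleotide synthesis 8 were higher (median 1.91), led by Gldc, the glycine decarboxylase, at 10.73, 10.72 and 10.79 in the ViPSC arrays and 4.32 in VM. Of 24 ribosome biogenesis genes 6 were higher by 2 units and 22 by 1 unit (median 1.49), against 6.44% and 16.7% of all genes. Glycolysis genes moved both ways. Slc2a3, a glucose transporter, read 13.73, 13.78 and 13.74 in the ViPSC arrays, against 5.37 in VM (8.38 ± 0.03), and 5 further genes were higher. Pgam2 (-5.56), Eno3 (-5.12) and Pfkm (-2.66), all muscle forms, were lower. Tpi1, Hk1, Aldoa and Ldha were held, though muscle uses the Aldoa and Ldha forms too. Tpi1 read 12.62, 12.62 and 12.65 in the ViPSC arrays and 12.66 in VM. Of 37 chromatin genes 12 were higher, with the DNA methyltransferase genes Dnmt3l (7.32) and Dnmt3b (6.52) and the remodeller Hells (5.29) in front. Suz12 and Eed of the polycomb complex were higher by 2.97 and 2.04, with the call of Eed lost with averaged probe sets or centred arrays, and Ezh2 had a difference of 2.02 that not every array met. The 3 chromatin genes called lower were Smarcd3, Smarca2 and Smarcc2.

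**Figure D4:**
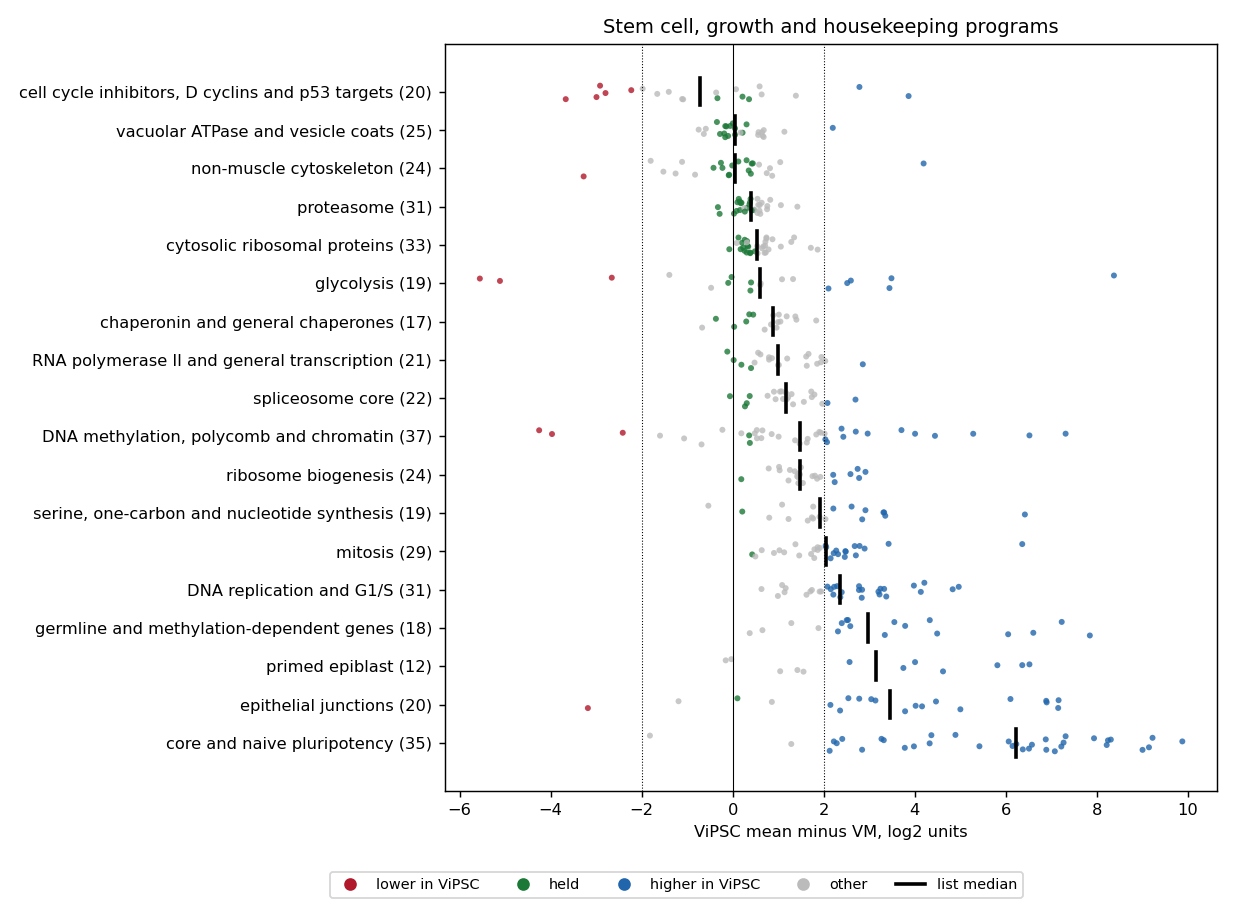
Each point is the difference of 1 gene, the mean of the 3 ViPSC arrays minus VM in log2 units, for 11 stem cell and growth lists and 7 housekeeping lists, with the number of measured genes in brackets. Blue points were called higher, green points held and red points lower. The black bars (list medians) run from -0.73 for the inhibitors and D cyclins to 6.24 for core and naive pluripotency. The median of the inhibitors and D cyclins was -0.48 with averaged probe sets and -0.36 over genes at 7 or more in VM or ViPSC.

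The genes that differed least included common machinery. The 10 with the smallest differences among held genes at 9 or more in VM were Sec24c, Pgrmc1, Dcun1d5, Unc50, Pigq, Oga, Msantd4, Pom121, Ctnnb1 and Pam16. Sec24c, a coat protein of vesicles that leave the endoplasmic reticulum, read 10.29, 10.33 and 10.33 in the ViPSC arrays and 10.31 in VM. Ctnnb1, beta-catenin, which serves cell contacts and Wnt signalling, read 13.32, 13.35 and 13.32 in the ViPSC arrays and 13.35 in VM. Oga, the enzyme that removes O-linked GlcNAc from proteins, read 11.80, 11.79 and 11.82 in the ViPSC arrays and 11.82 in VM. For all 10 every ViPSC array lay within 0.0323 units of VM, the value of Pam16. The held call of Dcun1d5 was lost with averaged probe sets.

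Over the 7 lists of common machinery 69 of 173 genes were held (39.9%), against 24.5% of all genes at 7 or more in VM, while 1 was lower and 5 were higher. The vacuolar ATPase and vesicle coats held 13 of 25 genes (median 0.05) and the cytoskeleton outside muscle 12 of 24 (0.06). Each of these lists also had 1 gene called higher, with largest differences of 2.20 and 4.20. The second is that of Tubb3, given above with the nerve genes. In the cytoskeleton list 4 genes were at least 1 unit lower. Actb, cytoplasmic actin, read 14.08, 14.04 and 14.07 in the ViPSC arrays and 13.94 in VM, and Flna, filamin A, 9.58, 9.69 and 9.70 in the ViPSC arrays and 9.67 in VM. Cfl2, the muscle cofilin, was the single gene called lower, at 9.53, 9.58 and 9.47 in the ViPSC arrays and 12.80 in VM. The proteasome held 17 of 31 genes (0.39) and the cytosolic ribosome 14 of 33 (0.54), with no member called either way. Hspa8, the constitutive heat shock protein, read 14.24, 14.29 and 14.21 in the ViPSC arrays and 14.21 in VM. The chaperone list (0.89), the list of RNA polymerase II and general transcription (0.998) and the spliceosome list (1.18) lay further up. They held 5 of 17, 4 of 21 and 4 of 22 genes (29.4%, 19.0% and 18.2%), the last 2 shares below the 24.5%. In the same order 5, 9 and 14 genes were at least 1 unit higher, against 16.7% of all genes. Gtf2e1, Sf3a1 and Eftud2 were called higher. All 3 of these calls were lost with averaged probe sets, and that of Sf3a1 also with centred arrays.

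Of 254 genes of the heart muscle lists at 7 or more in VM, 138 were lower (54.3%, against 14.7% of all genes at 7 or more in VM). A further 28 stayed within 1 unit of VM (11%, against 49.2%), and 11 of these were held (4.33%, against 24.5%). The 11 were Srf, Tead1, Tpm2, Ctnna1, Jup, Atp2a2, Slc25a20, Slc16a1, Cpt1a, Atp5g2 and Tfb2m. Cox6a1, which was also held, was not on these lists. Averaged probe sets ended the held calls of Tpm2, Ctnna1, Atp2a2, Slc25a20, Cpt1a and Atp5g2, and centred arrays that of Atp5g2. Genes at least 2 units higher in VM than in TTF numbered 852, and in ViPSC 572 of them were lower (67.1%), 13 higher and 31 held (3.64%). The share called lower is partly fixed by the choice of genes high in VM. The 10 nearest to VM among the 31 included Uchl1, a ubiquitin hydrolase, at 8.81, 8.80 and 8.92 in the ViPSC arrays, 8.94 in VM and 4.29 in TTF. Nr4a1, an immediate early nuclear receptor, read 10.48, 10.57 and 10.41 in the ViPSC arrays, 10.43 in VM and 7.93 in TTF. Pim3, a kinase, read 11.51, 11.60 and 11.56 in the ViPSC arrays, 11.44 in VM and 8.55 in TTF. For Uchl1, Nr4a1 and Pim3 the ESC means were 9.34, 9.48 and 11.81, and the TiPSC means 8.54, 9.93 and 11.62. Levels above TTF in these genes are therefore not particular to cells made from VM. The others were Csrnp1, Klhl21, Pkp4, Nav2, Frem2, Ankrd10 and Slc16a6, and none of the 10 is a sarcomere gene. The held calls of Klhl21, Nav2 and Ankrd10 were lost with averaged probe sets.

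Among the genes listed or named, 3 had both lower and held probe sets. Atp2a2 has 6 probe sets, and the one used, with the highest mean, read 11.95, 11.97 and 11.97 in the ViPSC arrays and 12.03 in VM. A second read 9.21, 9.32 and 9.42 in the ViPSC arrays, against 14.32 in VM (-4.998 ± 0.11), and another 8.32, 8.30 and 8.40, against 13.42 in VM (-5.08 ± 0.05). The held call of Atp2a2 therefore applies to 1 of 6 probe sets, and 3 of the 6 were lower by the same rule. Tpm1 was lower on 2 probe sets and held on the other two. Slc25a4 was lower on 2, held on 1 and at -1.56 on the last, and its lower call was lost with averaged probe sets. Tpm1, alpha tropomyosin, gave a difference of -4.01 on the probe set used and one of -0.35 on another. In all, 11 genes had both lower and held probe sets and 1 had lower and higher ones. Of the 727 lower genes with several probe sets, 195 had every one of them lower.

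**Figure D5:**
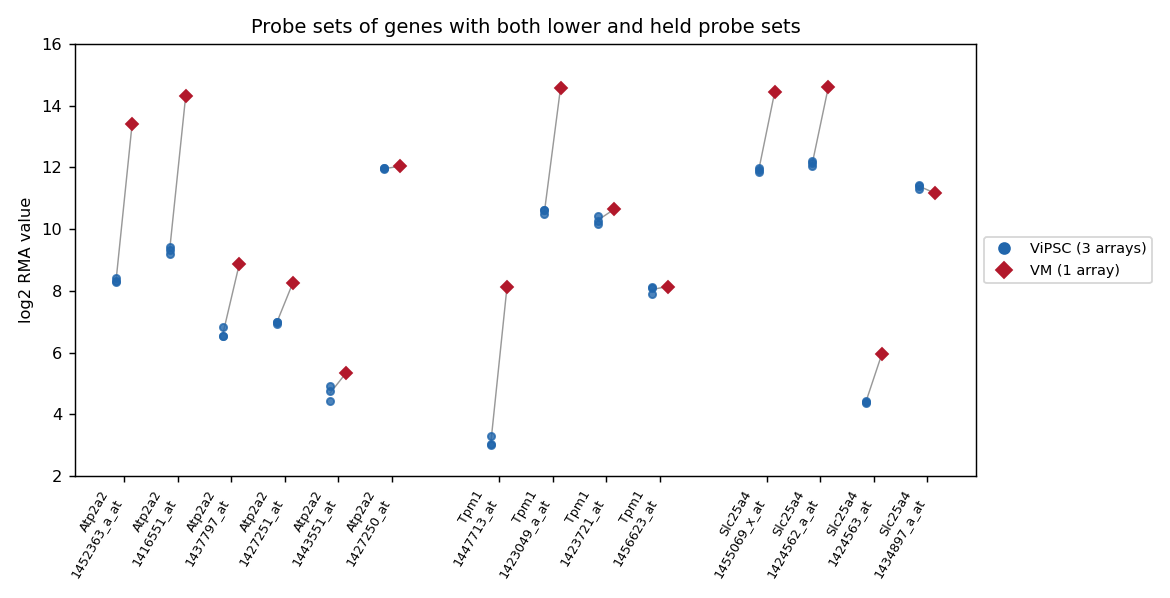
Log2 RMA values of every probe set of Atp2a2, Tpm1 and Slc25a4, with the 3 ViPSC arrays as blue circles on the left and the VM array as a red diamond on the right of each position. Within Atp2a2 the probe set at the right end is level in both, near 12, while those at the left end lie about 5 units apart.

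Most lower genes lay near the level of embryonic stem cells. Of the 1230 lower genes 1205 lay within 1 unit of the ESC mean, while in 7 every ViPSC array lay at least 1 unit above the ESC mean and above all ESC arrays, and in 7 below by the same rule. The 7 above were Igf2, Selenop, Eno3, Psmb8, Oasl2, Selenbp1 and Cldn5, and averaged probe sets ended the lower call of Psmb8. Igf2, the imprinted fetal growth factor, read 11.05, 11.10 and 11.06 in the ViPSC arrays, against 13.94 in VM, and 9.62, 9.18 and 8.72 in the ESC arrays. Eno3, muscle enolase, read 8.44, 8.47 and 8.46 in the ViPSC arrays, against 13.57 in VM, and 7.68, 6.83 and 6.99 in the ESC arrays. For both, all ViPSC arrays lay between VM and every ESC array. Of the 1172 higher genes 1112 lay within 1 unit of the ESC mean, and by the same rule 35 lay above and 4 below. The shares of all genes within, above or below these limits were not counted, so the counts do not set the called genes apart. Among the 1230 lower genes 948 had a ViPSC mean below 7. The ViPSC and ESC values are given side by side and the comparison was not tested here.

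The other source cell gave a few genes that moved in the opposite direction. By the same rule, 6.01% of genes were lower and 4.51% higher in TiPSC than in TTF. Only 13 genes were lower in ViPSC than in VM and higher in TiPSC than in TTF, and 11 the reverse. Dsp read 9.20, 9.38 and 9.25 in the ViPSC arrays and 12.46 in VM, and the TiPSC mean was 4.56 above TTF. Crabp1, a binding protein of retinoic acid, read 8.88, 8.88 and 8.85 in the ViPSC arrays and 4.51 in VM, against 13.78 in TTF.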

How the data were processed

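Total RNA of 11 samples was measured on Affymetrix mouse expression arrays. The deposited values are log2 expression levels made with RMA, per the submitters' processing notes, and the version, software and probe annotation are not given in the sources used here. RMA normalizes between arrays and compresses differences at low levels.

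Of 45101 probe sets, 64 controls, 932 with several gene symbols and 9160 without one were left out. The 34945 with 1 symbol covered 18193 genes (9010 by several probe sets), and 34741 of them matched a RefSeq gene by Entrez identifier. Each gene took its probe set with the highest mean over 11 arrays. Calls used thresholds of 2 and 0.5 log2 units in every ViPSC array, and VM at 7 or more for held genes. No test was made. The counting was tested on simulated data. Python 3.11.15 with pandas 2.3.3 and numpy 2.4.6 was used.

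The text names the 15 largest changes each way, the 10 least changed genes at 9 or more in VM, the 3 largest changes each way per list, exceptions within the lists, both genes of each pair, 10 genes above TTF in VM that held and up to 10 each way that moved opposite to TiPSC against TTF. A few further list members are named for their role, chosen after their values were seen. The 38 gene lists (916 entries, 844 measured), the pairs and the rule were chosen with earlier results of these data known. Alternatives were the mean of all probe sets, unspecific probe sets left out, a filter at 7, centred arrays, other thresholds, the ViPSC mean, and each ViPSC array left out.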

Additional observations from a re-analysis of the deposited data

Results flagged for a closer look

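Genes that moved one way from VM to ViPSC and the opposite way from TTF to TiPSC, by at least 2 units in every induced array, numbered 24, with 13 lower and 11 higher in ViPSC. The 2 contrasts share no array, and each source has 1 array, so the difference between them was not tested.

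The 10 named genes lower in ViPSC and higher in TiPSC read 8.16 to 12.46 in VM and 3.49 to 5.46 in TTF. Icam1, an adhesion molecule, had a ViPSC minus VM difference of -4.04 and a TiPSC minus TTF difference of 3.47. Dsp, desmoplakin, had -3.18 and 4.56, and Perp, a desmosome partner, -2.89 and 5.19. The muscle cytochrome oxidase subunit Cox7a1 had -3.69 and 3.38, and the peptide Nppb -2.26 and 4.07. The stress factor Atf3 had -4.72 and 2.54, Prkaa2, a catalytic subunit of AMP kinase, -3.005 and 2.42, and Cidea, a lipid droplet protein, -2.38 and 2.42. Rasip1, an endothelial gene, had -2.29 and 2.58, and Bcam, a laminin receptor, -2.28 and 3.33.

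The 10 named genes higher in ViPSC and lower in TiPSC were all lower in VM than in TTF, at 3.25 to 9.54 in VM and 8.75 to 14.33 in TTF. For these genes and the 10 above, the rule that picked them largely fixes the order of VM and TTF. This holds where the ViPSC and TiPSC levels are alike. Crabp1, which binds retinoic acid, had a ViPSC minus VM difference of 4.36 and a TiPSC minus TTF difference of -5.81. The inhibitor gene Cdkn2a had 3.87 and -4.22, and Vgll3 4.18 and -3.03. The calcium-binding genes S100a4, Calml4 and S100a6 had 2.87, 3.36 and 2.29 for ViPSC minus VM, and -4.46, -2.85 and -2.60 for TiPSC minus TTF. Tmem45a had 2.55 and -3.82, B3galnt1 2.43 and -4.16, the matrix protease Mmp3 2.41 and -3.74, and Pdgfc, a growth factor, 2.26 and -3.03.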

How the results depend on the processing

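No paired analysis was possible because VM has a single array, so the replicate numbers of ViPSC have no partner. The 3 counts (1230 lower, 1172 higher, 1812 held) stayed within 1.5 times their values under the choice of probe set, the filter at 7, centred arrays and the ViPSC mean, with 946 to 1301 lower, 861 to 1260 higher and 1317 to 2077 held. Leaving out 1 ViPSC array in turn gave 1244 to 1263 lower, 1201 to 1204 higher and 1886 to 1922 held. Thresholds moved them by construction. At 1 unit 2510 genes were lower and 3045 higher, at 3 units 636 and 463, and 751 genes were held within 0.25 units. With the mean of all probe sets of a gene, 900 of the 1230 lower, 824 of the 1172 higher and 1113 of the 1812 held genes kept their call. Among genes named in the text that setting ended 11 of 113 lower calls, 9 of 48 higher calls and 11 of 40 held calls, each named beside its result. Without the less specific probe sets Laptm5, Meis2 and Tfb1m lost theirs, and with centred arrays Eed and Sf3a1. None of the lower or higher genes named in the text changed sign under these settings, and the other called genes were not checked for it. List medians near 0 did. List medians of the text that moved by over 1.5 times are given beside their lists, or here where they lay near 0. The cytoskeleton outside muscle had a median of -0.0068 without the less specific probe sets and -0.018 with centred arrays, and the vacuolar ATPase and vesicle coats -0.025 with centred arrays. With averaged probe sets the cytoskeleton median was 0.0002. The vacuolar ATPase and vesicle coats had 0.027 with the filter at 7. Only genes at 7 or more in VM or ViPSC gave 2.99 for 3 blood genes and 0.69 for 2 epicardial genes. The cause of these shifts was not tested. The limits are the single VM array, whose spread is unknown, the missing detection calls, and markers of endothelium and fibroblasts in VM.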
